A study of Homo sapiens with 4 samples.

Results

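Promoters of human embryonic stem cells (hESCs) with induced JMJD3c were described here by the 2 histone marks measured in the same induced population, H3K27me3 and H3K4me3. JMJD3c is the C-terminal, catalytic portion of JMJD3 (KDM6B), an enzyme that takes methyl groups off lysine 27 of histone H3. The cells, JMJD3c-hESCs, were a stable derivative of the SEES-3 line carrying a piggyBac Tet-On construct for HA-tagged JMJD3c, grew without feeders in StemFit AK-03, received doxycycline (+Dox) at 1 µg/ml and were collected on day 3. Of the 4 libraries of the series, the 2 from +Dox cells were used, 1 chromatin immunoprecipitation (ChIP-seq) library with an antibody to H3K27me3 and 1 with an antibody to H3K4me3 (both from Millipore). Every promoter was included, which gave 20242 promoters of 20242 after the tables were joined on gene and transcript, so no measured value chose them. A promoter was taken to carry a mark where its deposited value exceeded 20. This value is the ngs.plot signal in a window reaching 3 kb to either side of the start of transcription, and the threshold follows the definition of bivalent genes in the published methods. There was 1 library per mark. Therefore, nothing was tested, and all statements describe these 2 libraries.

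H3K27me3 is laid down by the Polycomb complex PRC2 and is found at silenced developmental genes, whereas H3K4me3 is laid down by the COMPASS-type enzymes and is found at promoters that are active or ready to be activated. In pluripotent cells many promoters of developmental regulators carry both marks and are called bivalent. Promoters of genes in steady use, such as those for the ribosome, usually carry H3K4me3 only, and promoters without CpG islands often carry neither mark.

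In the +Dox cells 1027 promoters (5.07%, 95% Wilson interval 4.78 to 5.38%) carried both marks, and 336 (1.66%, 1.49 to 1.85%) carried H3K27me3 only. H3K4me3 alone was found at 11662 promoters (57.6%, 56.9 to 58.3%) and neither mark at 7217 (35.7%, 35.0 to 36.3%). H3K27me3 thus exceeded 20 at 1363 promoters (6.73%), most of which (1027) carried H3K4me3 as well. H3K4me3 exceeded 20 at 62.7% of all promoters. The promoters with both marks had a median signal of 41.4 for H3K27me3 (quartiles 26.8 to 70.1) and 39.1 for H3K4me3 (29.8 to 54.4). The H3K27me3-only promoters had a median H3K27me3 of 49.8 and reached higher, with an upper quartile of 165, and their median H3K4me3 was 13.0. H3K4me3-only promoters had a median H3K4me3 of 64.5, above the 39.1 of promoters with both marks, and a median H3K27me3 of 6.34. Promoters with neither mark had a median of 5.22 for each mark.

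Both libraries were shallow. The values were whole multiples of the same step in both files (0.373), which corresponds to 2682085 reads entering the scaling of each; whether the libraries truly held the same number of reads is not stated. A value of 20 stood for about 16.0 reads in H3K27me3 and 15.7 in H3K4me3, and its 95% Poisson interval ran from 11.4 to 32.5 and from 11.4 to 32.6. About 170843 and 705165 reads fell into the promoter windows. All intervals given here cover counting error only. At this depth 455 of the 1027 promoters with both marks (44.3%) had intervals above 20 for both, and only 70 of the 336 H3K27me3-only promoters (20.8%) had an H3K27me3 interval above 20 together with an H3K4me3 interval below it. The values nearest to the threshold were 20.1 and 19.8 for either mark, and 150 promoters lay at 18 to 20 and 128 at 20 to 22 for H3K27me3, against 210 and 276 for H3K4me3.

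The DNA in front of 4 transcription starts is shown so that promoters with H3K27me3 can be set beside 1 with neither mark. There is 1 example each of H3K27me3 alone (NKX2-3, a homeobox factor of gut and spleen), of both marks with more H3K27me3 (LHX2, a LIM homeobox factor of forebrain and eye), of both marks with more H3K4me3 (PAX7, a paired box factor of neural crest and muscle precursors) and of neither mark (AFP, the fetal liver protein alpha-fetoprotein). Each is the 200 bases that end just before the start, on the plus strand of hg19, with CpG dinucleotides in capitals. None overlaps an annotated exon.
NKX2-3, chr10:101292499-101292698: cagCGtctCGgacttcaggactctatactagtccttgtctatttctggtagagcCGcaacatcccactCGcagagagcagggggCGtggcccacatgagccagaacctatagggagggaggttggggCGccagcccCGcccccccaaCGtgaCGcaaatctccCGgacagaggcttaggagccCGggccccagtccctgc
LHX2, chr9:126773847-126774046: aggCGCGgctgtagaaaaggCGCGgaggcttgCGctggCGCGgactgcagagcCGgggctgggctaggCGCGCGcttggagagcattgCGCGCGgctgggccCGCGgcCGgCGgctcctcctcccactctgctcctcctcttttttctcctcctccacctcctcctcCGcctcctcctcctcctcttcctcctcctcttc
PAX7, chr1:18957140-18957339: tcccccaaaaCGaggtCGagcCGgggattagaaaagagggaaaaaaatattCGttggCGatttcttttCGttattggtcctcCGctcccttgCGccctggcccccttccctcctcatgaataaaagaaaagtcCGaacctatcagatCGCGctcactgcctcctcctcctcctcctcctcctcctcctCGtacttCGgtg
AFP, chr4:74301738-74301937: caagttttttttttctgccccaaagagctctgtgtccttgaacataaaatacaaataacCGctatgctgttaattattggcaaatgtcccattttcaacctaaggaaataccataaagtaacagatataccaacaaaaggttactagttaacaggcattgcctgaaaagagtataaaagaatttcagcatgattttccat
These stretches held 11, 19, 13 and 1 CpG, in this order. The NKX2-3 promoter had the highest H3K27me3 of all promoters, 384 (343 to 430), with an H3K4me3 of 13.0 (6.33 to 23.8). LHX2 had an H3K27me3 of 258 and an H3K4me3 of 40.6, and PAX7 had 36.5 and 63.4. AFP had 5.22 and 7.46. The 3 marked examples thus lay on CpG-bearing DNA, while the example without a mark was almost free of CpG. Among all 18244 promoters with a known position, 95.6% had at least 1 CpG in these 200 bases, and 35.0% had as many as LHX2. No H3K4me3-only promoter is shown. That class also lacks H3K27me3, yet its median was 19 CpG in these bases, against 13 with H3K27me3 only.

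**Figure D1:**
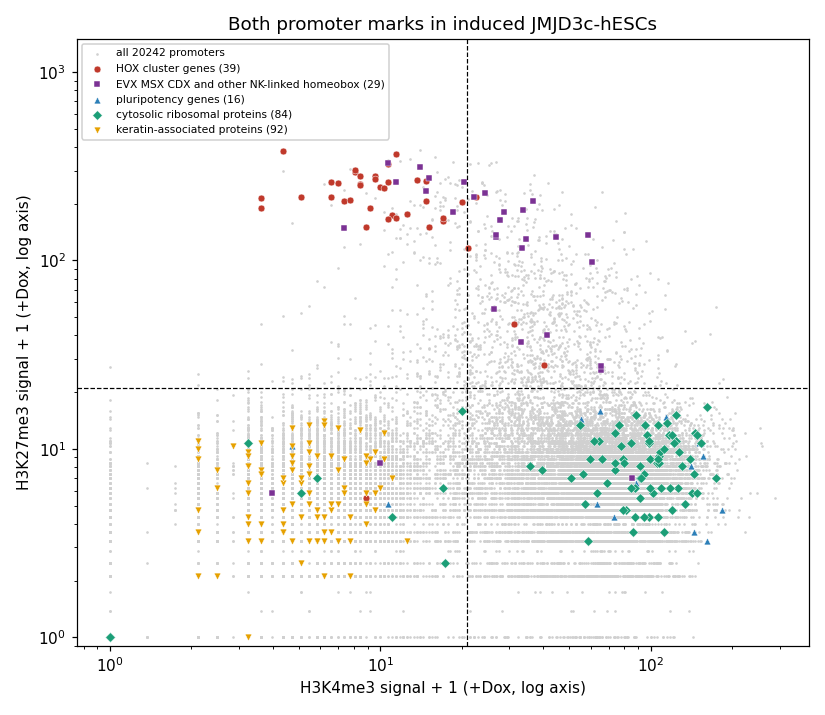
H3K4me3 signal (x axis) against H3K27me3 signal (y axis) in +Dox cells, each plus 1 and on a log axis, for 20242 promoters (grey) and 5 gene families in colour, with dashed lines at 20. HOX genes lie high and left, homeobox genes of the EVX, MSX and CDX group lie high and on both sides of the H3K4me3 line, pluripotency and ribosomal protein genes lie low and right, and keratin-associated protein genes lie low and left.

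Gene families were examined next, with 78 lists of genes grouped under 9 themes. The developmental transcription factors, which direct cell fate, stood out among the themes. Of 382 promoters in 22 such families, 139 (36.4%, 31.7 to 41.3%) carried both marks against 5.07% of all promoters, and 83 (21.7%) carried H3K27me3 only against 1.66%. A further 102 (26.7%) carried H3K4me3 only and 58 (15.2%) neither mark. These factors made up 1.89% of all promoters but 13.5% of those with both marks, 24.7% of those with H3K27me3 only and 67 of the 95 promoters with an H3K27me3 signal above 200 (70.5%). The lineage lists, which share members with these families, had 24 of 75 (32.0%) with both marks. Signalling genes followed with 32 of 163 (19.6%) carrying both marks, and nerve cell genes with 77 of 413 (18.6%). In contrast, both marks were found at 16 of 257 matrix and cytoskeleton genes (6.23%), at 8 of 682 immune and sensory genes (1.17%) and at none of 458 housekeeping genes, where 0 allows a share of up to 0.83% by the Wilson interval.

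**Figure D2:**
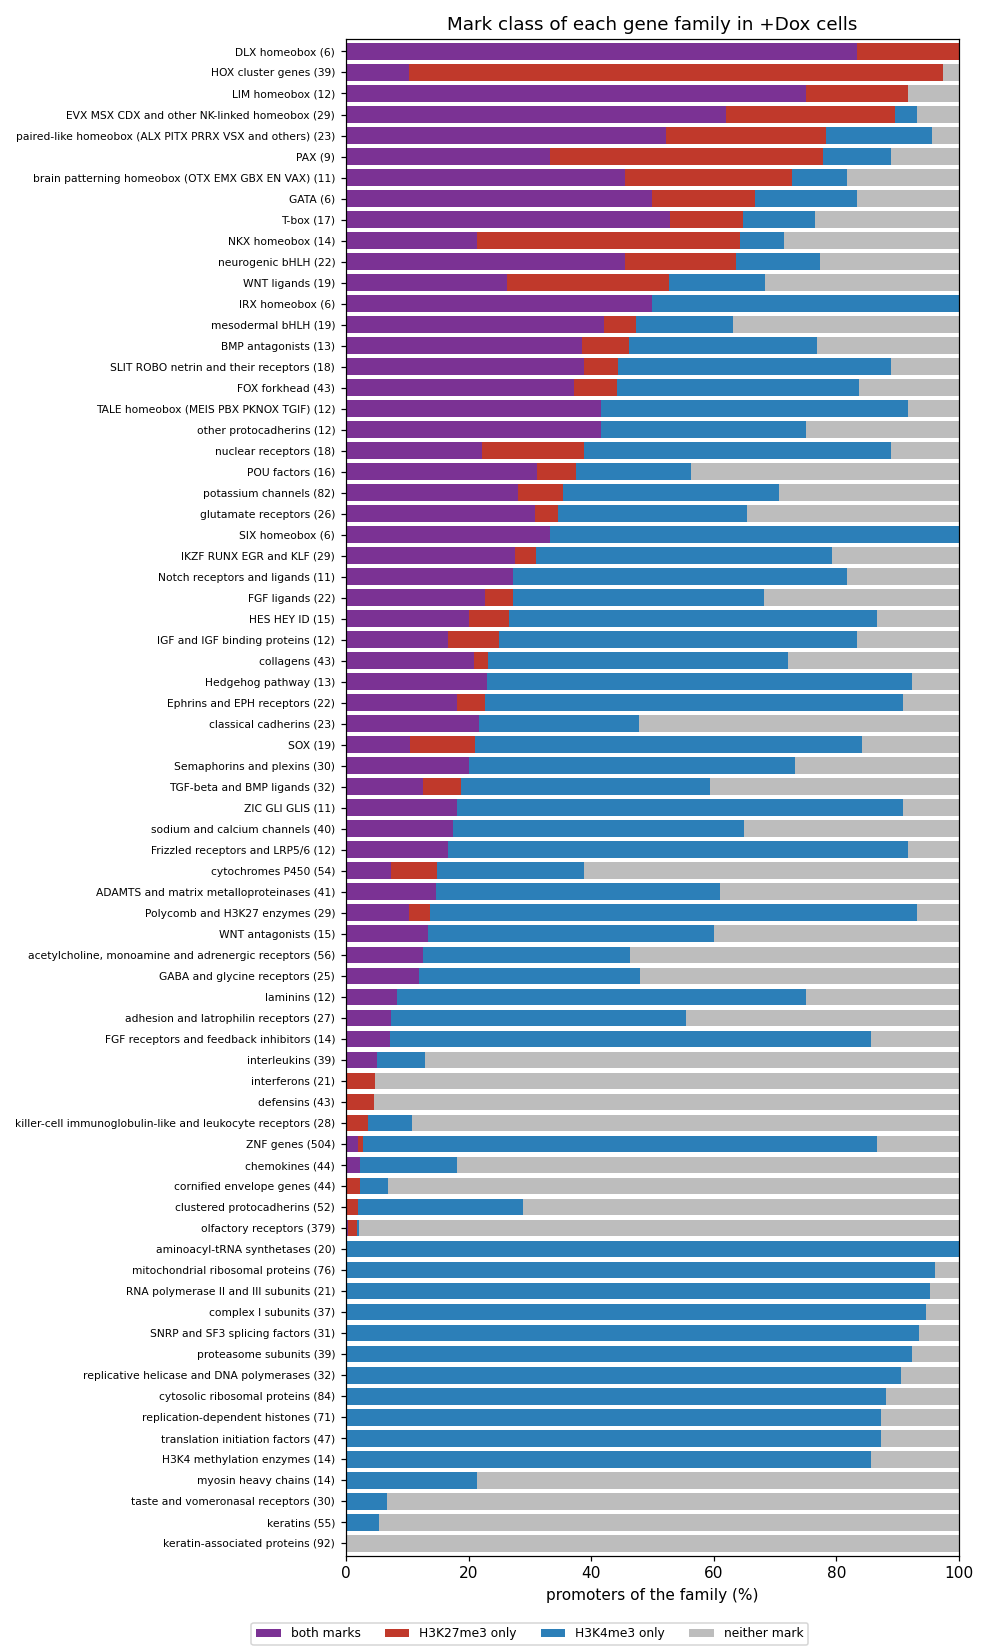
Share of the promoters of each gene family (x axis, %) that carried both marks, H3K27me3 only, H3K4me3 only or neither mark in +Dox cells, with the number of promoters in brackets and families sorted by the share with H3K27me3. DLX, HOX and LIM homeobox families lie at the top, housekeeping families consist of H3K4me3 only or neither mark, and all 92 keratin-associated protein promoters carried neither.

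Homeobox families differed in how the H3K27me3-marked members were split between both marks and H3K27me3 alone. The HOX cluster genes, which set position along the body axis, were the most one-sided family. H3K27me3 exceeded 20 at 38 of their 39 promoters, 34 of which carried H3K27me3 only and 4 both marks, and the remaining promoter, in the HOXB cluster, carried neither. Their H3K27me3 signal had a median of 217 and a range of 4.47 to 382, and their H3K4me3 signal had a median of 8.95 and a range of 2.61 to 39.5. The counting interval of H3K4me3 lay wholly below 20 at 25 of the 39. All 11 HOXA promoters on chromosome 7 (H3K27me3 149 to 382) and all 9 HOXC promoters on chromosome 12 (161 to 366) carried H3K27me3 only. Of the 10 HOXB promoters on chromosome 17, 7 carried H3K27me3 only and 2 both marks, as did 7 and 2 of the 9 HOXD promoters on chromosome 2.

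Other homeobox families had more members with both marks. DLX genes, which act in forebrain interneurons and branchial arches, carried both marks at 5 of 6 promoters, with a median H3K27me3 of 172 and a median H3K4me3 of 25.0. DLX1 had an H3K27me3 of 224 and an H3K4me3 of 28.0, and DLX2, the H3K27me3-only member, had 205 and 11.9. LIM homeobox genes, which specify neuron types, carried both marks at 9 of 12, and LHX9 (229 and 15.3) and LHX6 (148 and 12.7) carried H3K27me3 only. The group of EVX, MSX, CDX and related genes carried both marks at 18 of 29 promoters and H3K27me3 only at 8, the latter led by GSX1 (330 and 9.69), EVX2 (312 and 13.0) and EVX1 (271 and 14.2). Paired-like genes carried both marks at 12 of 23 and H3K27me3 only at 6, among them OTP, a factor of the hypothalamus (235 and 6.34). The OTX, EMX, GBX, EN and VAX genes, which pattern the brain, had 5 of 11 with both marks and 3 with H3K27me3 only, with EN1 at 271 and 16.4 and VAX2 at 249 and 23.1. Among promoters with both marks, both counting intervals lay above the threshold at 2 of 5 DLX and 7 of 9 LIM genes. The same held at 9 of 18 in the EVX group, 5 of 12 paired-like genes and 3 of 5 brain genes. The H3K4me3 interval included the threshold at DLX1, DLX5, DLX6 and the H3K27me3-only promoters of DLX2, LHX9, LHX6, EVX2, EVX1 and EN1. At GSX1 that interval lay below the threshold. The split within these families was therefore uncertain at this depth.

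NKX genes carried H3K27me3 only at 6 of 14 promoters and both marks at 3, and NKX2-1, a factor of thyroid, lung and forebrain, had an H3K27me3 of 304 (267 to 345) with an H3K4me3 of 6.71 (2.26 to 15.3). PAX genes carried H3K27me3 only at 4 of 9 and both marks at 3. The H3K4me3 counting interval included 20 at 5 of these 6 NKX promoters and at 2 of these 4 PAX promoters, and at a threshold of 10 both marks were found at 71.4% of NKX and 55.6% of PAX promoters. PAX1, a sclerotome factor, had an H3K27me3 of 343 and an H3K4me3 of 11.9, and PAX3, a factor of neural crest and dermomyotome, had 263 and 5.97. PAX9, whose deposited start lies 4292 bp from the canonical start, had 330 and 24.6. PAX6, of eye and forebrain, carried both marks at 167 and 33.9, and PAX5, a B cell factor, carried H3K4me3 only (2.24 and 50.3).

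The IRX, sine oculis and TALE homeobox genes and the ZIC and GLI zinc fingers had no H3K27me3-only member. Both marks were found at 3 of 6 IRX genes, 2 of 6 sine oculis genes and 5 of 12 TALE genes, and the others carried H3K4me3 only apart from 1 TALE gene. Their H3K4me3 was high, with medians of 76.4 for IRX, 129 for sine oculis and 69.2 for TALE against 38.8 over all promoters. IRX3 had an H3K27me3 of 161 with an H3K4me3 of 73.8, and SIX6, an eye field factor, had 36.2 and 145. Of 11 ZIC, GLI and GLIS genes, 8 carried H3K4me3 only and 2 both marks. ZIC2, a neural plate factor, had the highest H3K4me3 of all promoters, 288 (252 to 328), with an H3K27me3 of 4.47.

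Among the factors without a homeobox, T-box genes, which act in mesoderm, heart and limb, carried both at 9 of 17 promoters and H3K27me3 only at 2, TBX2 (332 and 17.5) and TBX20 (149 and 18.3). Neurogenic bHLH genes carried both at 10 of 22 and H3K27me3 only at 4, and mesodermal bHLH genes carried both at 8 of 19 and H3K27me3 only at 1, FERD3L (92.5 and 9.32). HAND1 (259 and 22.7) and HAND2 (233 and 20.9), which act in heart and extraembryonic mesoderm, were just above 20 for H3K4me3 with counting intervals of 13.5 to 36.0 and 12.0 to 33.7. GATA genes carried both at 3 of 6, with GATA6 at 183 and 38.8. FOX forkhead genes divided into 16 with both marks, 3 with H3K27me3 only, 17 with H3K4me3 only and 7 with neither. FOXB2 (319 and 24.2), FOXE1 (257 and 17.2) and FOXF1 (254 and 34.7) had the highest H3K27me3 among them. SOX genes carried H3K4me3 only at 12 of 19 promoters (63.2%, against 57.6% of all promoters) and both marks at 2, SOX1 (108 and 30.9) and SOX14 (52.9 and 101). Their share with both marks was 10.5%, and 52.6% at a threshold of 10. SOX17, an endoderm factor, carried H3K27me3 only at 195 and 5.59.

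The remaining families of transcription factors were mixed. POU factors carried both marks at 5 of 16 promoters, nuclear receptors at 4 of 18, the HES, HEY and ID genes at 3 of 15 and the KLF, EGR and related zinc finger and blood factors at 8 of 29. H3K27me3 only was found at 1, 3, 1 and 1 of these. POU4F3, a hair cell factor, had an H3K27me3 of 267 with an H3K4me3 of 18.6, and HELT, a midbrain factor, had 230 and 45.9. EGR3, an immediate-early gene, had 230 and 64.9. These single members thus lay above the HOX median of 217, while the family medians of H3K27me3 lay at 7.83, 9.13, 13.0 and 10.8.

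In the WNT and FGF pathways the promoters of ligands were set beside those of receptors. WNT ligands carried both marks at 5 of 19 promoters and H3K27me3 only at another 5, led by WNT1 (251 and 18.3), WNT6 (164 and 14.5) and WNT10B (157 and 17.9). Their receptors, the Frizzled proteins with LRP5 and LRP6, carried H3K4me3 only at 9 of 12 promoters and both marks at 2, FZD1 (69.0 and 69.3) and FZD10 (35.8 and 58.9). The median H3K4me3 was 17.9 over the ligands and 84.4 over the receptors, and the median H3K27me3 was 20.9 and 5.97. In the FGF pathway the median H3K4me3 was 32.1 over 22 ligands and 113 over 14 receptors and feedback inhibitors, while the median H3K27me3 was 8.39 and 6.90. These differences were not tested. The Wilson intervals of the share with both marks overlapped, at 11.8 to 48.8% for WNT ligands and 4.70 to 44.8% for their receptors. Of the ligands, 5 carried both marks and FGF5 (195 and 12.3) carried H3K27me3 only. Of the receptors and inhibitors, 11 carried H3K4me3 only, and SPRY4, which damps FGF signalling, had an H3K4me3 of 252.

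TGF-beta and BMP ligands carried both marks at 4 of 32 promoters, with GDF6, a bone and joint factor, at 209 and 26.8. BMP antagonists, secreted proteins that bind BMPs, carried both at 5 of 13. Among these were CHRD (41.4 and 30.2), the gene for chordin, and GREM1 (110 and 28.3), whose deposited transcript had no match in the annotation. In the Hedgehog pathway both marks were found at 3 of 13 promoters, and these encode the ligands SHH (86.9 and 35.0) and IHH (70.1 and 21.6) and the binding protein HHIP (31.7 and 20.5). Of the other 10, DHH, also a ligand gene (9.69 and 16.0), carried neither mark and the rest H3K4me3 only. In the Notch pathway both marks were found at 3 of 11, the ligand genes DLL4 (129 and 46.2) and DLL3 (28.3 and 28.3) and the Delta-like gene DLK2 (30.9 and 32.8). The ligand genes DLL1 (6.34 and 102), JAG1 (1.12 and 127) and JAG2 (7.46 and 25.7) carried H3K4me3 only. These groups are small, and the Wilson interval of 3 of 13 is 8.18 to 50.3%.

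Genes of nerve cells carried both marks at 77 of 413 promoters (18.6%, against 5.07% of all promoters). H3K27me3 only was found at 10 (2.42%, against 1.66%). Both marks were the commoner of these 2 classes over all promoters as well, with 1027 and 336. Potassium channels were the largest contributor, with both marks at 23 of 82 promoters (28.0%, 19.5 to 38.6%) and H3K27me3 only at 6. KCNK4 had an H3K27me3 of 129 and an H3K4me3 of 26.5, KCNA1 had 101 and 23.5, and KCNH3 had 92.1 and 32.1. Sodium and calcium channels carried both at 7 of 40, glutamate receptors at 8 of 26 and GABA and glycine receptors at 3 of 25. GRID1, a delta glutamate receptor gene, had the highest H3K27me3 of these, 167 with an H3K4me3 of 29.8. Among axon guidance genes both marks were found at 7 of 18 SLIT, ROBO and netrin genes, at 6 of 30 semaphorins and plexins and at 4 of 22 ephrins and their receptors. ROBO3 carried H3K27me3 only (192 and 16.0), while NTN1 (79.0 and 58.2), DCC (54.8 and 38.8) and SLIT2 (54.4 and 112) carried both marks.

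Protocadherins were compared by genomic arrangement. The 52 protocadherins of the alpha, beta and gamma clusters give neurons individual surface identities. None carried both marks, 37 carried neither (71.2%, against 35.7% of all promoters) and 14 carried H3K4me3 only. The upper Wilson bound of the 0% with both marks is 6.88%, above the 5.07% of all promoters. At a threshold of 10 the share with both marks was 15.4%. The single H3K27me3-marked promoter was PCDHGB3 (25.7 and 4.85). Outside the clusters, 5 of the 12 protocadherins carried both marks (41.7%, 19.3 to 68.0%), including PCDH17 (113 and 85.0), PCDH8 (80.2 and 59.7) and PCDH19 (76.1 and 25.0). Both counting intervals lay above 20 at 2 of these 5. Among matrix genes, collagens carried both at 9 of 43, with COL2A1, the cartilage collagen, at 108 and 52.2 and COL12A1 at 107 and 80.2. Both marks were also found at 6 of 41 ADAMTS and matrix metalloproteinase genes, 5 of 23 classical cadherins and 1 of 12 laminins, and at none of 14 myosin heavy chains. The Wilson intervals of the laminins (1.49 to 35.4%) and the myosin heavy chains (0 to 21.5%) included the 5.07% of all promoters.

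Families of differentiated barrier, immune and sensory cells mostly carried neither mark. All 92 keratin-associated protein genes, 52 of 55 keratins, 371 of 379 olfactory receptors, 41 of 43 defensins and 34 of 39 interleukins were in this class. The keratins outside it were KRT8 (H3K4me3 of 121), KRT18 (122) and KRT19 (58.2), the keratins of simple epithelia, all with H3K4me3 only. KRT8 was measured at a start 44766 bp from the canonical start. The 6 olfactory receptors with H3K27me3 only (1.58%, near the 1.66% of all promoters) lay between 22.0 (OR4A16) and 38.4 (OR4N4). OR4D1 carried both marks at 25.0 and 23.5. Cytochromes P450 were mostly unmarked as well (33 of 54), and 4 carried both marks (7.41%, 2.92 to 17.6%), near the 5.07% of all promoters. The 4 were CYP26B1 (101 and 47.7), CYP26C1 (92.5 and 38.4) and CYP26A1 (80.2 and 67.5), which break down retinoic acid, and CYP24A1 (54.4 and 24.6), which breaks down vitamin D. A further 4 cytochromes P450 carried H3K27me3 only (7.41%, against 1.66% of all promoters). Of these only CYP27B1, the enzyme that activates vitamin D, is named, as it had the highest H3K27me3 of the family (112 and 17.2). It lies in a run of 6 neighbouring promoters with H3K27me3. The rest of the H3K27me3-only cytochromes P450 are not named, and a shared function of the marked members was not tested.

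Housekeeping genes carried H3K4me3 only at 419 of 458 promoters (91.5%) and neither mark at 39, and their highest H3K27me3 signal was 16.0. H3K4me3 only was found at 74 of 84 cytosolic ribosomal protein genes, with a median H3K4me3 of 92.1, at all 20 aminoacyl-tRNA synthetases (68.2) and at 62 of 71 replication-dependent histone genes (71.2). The 10 ribosomal protein genes with neither mark included RPL10, which was at 0 for both marks, RPL3L and RPL10L, tissue-restricted copies, and RPL4, RPL22, RPL36, RPL39L and RPS4X, whose deposited starts lie 3877 to 41412 bp from the canonical starts. A value of 0 for both marks occurred at 429 promoters in all. Of 504 ZNF genes, the large zinc finger family, 423 carried H3K4me3 only and 10 both marks, led by ZNF503 (141 and 79.0) and ZNF703 (84.3 and 98.8).

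The enzymes that write, read and remove these marks were examined as a list of their own. Of 29 genes of Polycomb and H3K27 enzymes, 23 carried H3K4me3 only, among them EZH2, the PRC2 methyltransferase (8.95 and 120), and KDM6A, the UTX demethylase (4.85 and 71.2). KDM6B, the endogenous gene for JMJD3, had an H3K27me3 of 5.22 and an H3K4me3 of 60.4. Both marks were found at BMI1 (55.9 and 47.0) and 2 more genes (10.3%, against 5.07% of all promoters), all of them for PRC1 components. H3K27me3 only was found at CBX8 (295 and 15.3), also of PRC1 and measured 4456 bp from the canonical start. Other PRC1 genes of this list had no H3K27me3 above 20, among them RING1 (11.6 and 50.7) and RNF2 (4.85 and 57.0), both with H3K4me3 only. Of 14 H3K4 methylation enzymes none carried H3K27me3, a mark found at only 6.73% of all promoters. H3K4me3 only was found at 12 of them (85.7%), against 57.6% of all promoters and 91.5% of housekeeping promoters.

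Lineage genes were compared next, beginning with the pluripotency genes. Of these 16 promoters, 14 carried H3K4me3 only, against 57.6% of all promoters and 91.5% of housekeeping promoters. H3K27me3 exceeded 20 at none of them, against 6.73% of all promoters, and the highest H3K27me3 was 14.9 at UTF1. DNMT3B had an H3K4me3 of 182, PRDM14 156, SOX2 152, DPPA4 150 and NANOG 62.3. The promoters below 20 were DPPA2 (H3K4me3 of 9.69) and POU5F1 (3.73), and the latter was measured at a start 10049 bp from the canonical start. The count is no sign of the labelled cell type, since housekeeping promoters show the same classes, and transcription was not measured here.

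Mesoendodermal genes were split between both marks (7 of 17), H3K27me3 only (5), H3K4me3 only (4) and neither (1). HAND1 (259 and 22.7), MSX1 (217 and 21.3), GATA6 (183 and 38.8), GSC (107 and 56.3), EOMES (67.5 and 68.2) and FOXA2 (26.8 and 74.9) carried both marks, here in order from more H3K27me3 to more H3K4me3, as did T, the brachyury gene. EVX1, SOX17, WNT3A (96.2 and 14.2), CER1 (25.0 and 8.95) and GATA4 (71.6 and 10.1) carried H3K27me3 only, the last at a start 27243 bp from the canonical start. BMP2 (19.0 and 82.8), BMP4 (8.95 and 94.3), MIXL1 (3.36 and 39.5) and MESP1 (4.47 and 25.4) carried H3K4me3 only. The H3K27me3 counting interval included the threshold at BMP2 (10.7 to 31.2), FOXA2 (16.7 to 40.8) and CER1 (15.3 to 38.6). The H3K4me3 interval included it at others, among them HAND1 (13.5 to 36.0), MSX1 (12.3 to 34.2) and WNT3A (7.11 to 25.3). Both counting intervals lay above the threshold at 4 of the 7 promoters with both marks.

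All 12 genes of the neuroectodermal list, which was chosen with earlier results known, had H3K27me3 above 20. Both marks were found at 9 of 12 and H3K27me3 only at PAX3, NEUROD1 (146 and 10.8) and NEUROG1 (53.3 and 10.1). Their median H3K27me3 was 139 and their median H3K4me3 32.4, compared with 71.6 and 25.4 over the mesoendodermal genes. LHX2, OLIG2 (232 and 26.1), NEUROG2 (132 and 37.7) and SOX1 (108 and 30.9) had more H3K27me3 than H3K4me3, whereas NEUROG3 (38.0 and 67.1) and OTX2 (30.2 and 61.1) had more H3K4me3. ZIC1 (21.6 and 88.4), just above the threshold for H3K27me3, was measured 15943 bp from its canonical start. ZIC2, a neural plate factor outside the list, had an H3K27me3 of only 4.47. The difference between the neuroectodermal and mesoendodermal lists was not tested.

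Myogenic genes fell into all 4 classes. PAX3, PAX7 (36.5 and 63.4) and MYOD1, the determination factor (88.0 and 21.3), carried H3K27me3, the first alone and the others with H3K4me3. The later genes MYOG (3.36 and 6.34), MYH3 (3.36 and 7.83) and CKM (2.61 and 15.3) carried neither mark, as did MYF5 (4.47 and 10.4) and MEF2C, measured 20869 bp from the canonical start. MYF6 carried H3K4me3 only. Of the 14 genes of liver, bone and blood, 7 carried neither mark and 4 both, among them FOXA1, HHEX (39.1 and 40.3) and PROX1 (24.2 and 107). Of 7 cyclin-dependent kinase inhibitors, 5 carried H3K4me3 only, and CDKN2B (23.5 and 23.9) and CDKN2A (96.9 and 25.4, measured 20444 bp from the canonical start) carried both. Both counting intervals lay above 20 at 0 of these 2 promoters.

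The balance of the marks, given as log2 of H3K27me3 over H3K4me3, was broad at the 1027 promoters with both. Its median was 0.06, its quartiles were −0.67 and 0.92, and it ran from −3.07 to 3.99. H3K27me3 was the higher value at 534 promoters (52.0%). It exceeded H3K4me3 more than 2-fold at 241 promoters (23.5%), and the reverse held at 169 (16.5%). Which mark was higher turned on the scaling and the threshold, and the median balance was 2.13 with the libraries scaled to the same total and −1.38 at a threshold of 10. The counting interval of the balance lay above 0 at 296 promoters, below 0 at 228 and included 0 at 503, so the higher mark could not be told for these 503 at this depth. The antibodies were different and no input library was used, hence a balance of 0 means equal scaled signal and not equal amounts of the modification.

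Developmental transcription factors leaned towards H3K27me3, with a median balance of 1.18 at the 139 promoters with both marks, compared with 0.10 for signalling genes and −0.11 for nerve cell genes. Within the factors the medians of families with 5 or more such promoters ran from −1.39 (TALE homeobox) to 2.69 (DLX). The most H3K27me3-heavy promoters with both marks were the divergent pair DUOX2 (325 and 20.5) and DUOXA2 (327 and 22.0), which encode a thyroid oxidase and its maturation factor and share most of their window. PAX9, FOXB2 and PRDM12, a factor of pain-sensing neurons (332 and 25.7), came next. NR2E1 (257 and 22.7) and OSTM1 (257 and 22.7) also appeared among them, but the deposited start of OSTM1 lies 91099 bp from its canonical start and next to that of NR2E1, so the 2 windows nearly coincide. Each of these promoters was above 20 for H3K4me3 by less than its counting error.

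At the other end, among promoters with H3K27me3 of at least 40, the balance was lowest at HS3ST3B1, a heparan sulfate sulfotransferase gene (41.0 and 133, balance −1.70), and BCL2L11, the gene for the apoptosis protein BIM (55.9 and 174, −1.64). DACH1 (47.0 and 98.8), SLC4A11 (42.9 and 89.9), FGF9 (45.1 and 94.0) and SLIT2 followed. BCL2L11 and HS3ST3B1 were also the promoters with the highest joint rank of the marks, followed by HES7, a segmentation clock gene (39.5 and 166), SIX6, GFRA1 (35.4 and 142) and NR4A3 (74.6 and 115). Their H3K27me3 lay below the HOX median of 217.

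**Figure D3:**
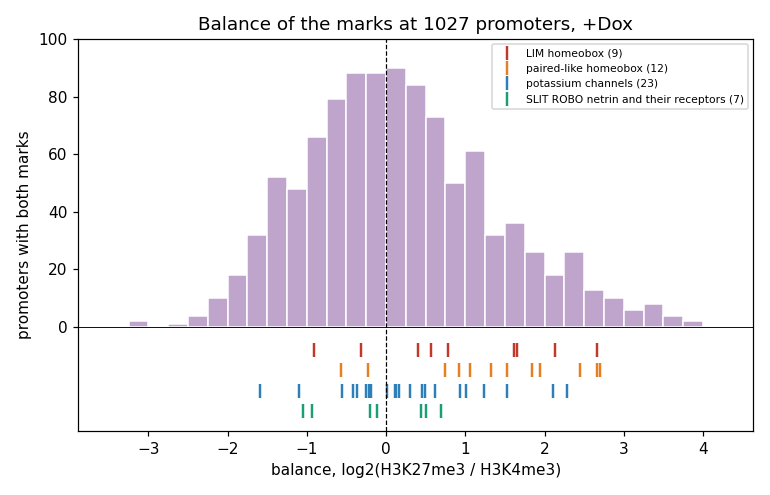
Histogram of the balance, log2 of H3K27me3 over H3K4me3, at the 1027 promoters with both marks in +Dox cells (y axis, number of promoters), with ticks below it for the members of 4 families. The distribution is centred near 0 (median 0.06), LIM and paired-like homeobox promoters lie mostly to its right, and potassium channel and SLIT, ROBO and netrin promoters lie on both sides.

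The marks were not simply opposed. H3K27me3 above 20 was found at 1.68% of the 6148 promoters with an H3K4me3 of 10 or less, at 16.6% of 1405 between 10 and 20, at 19.2% of 2785 between 20 and 40, at 6.77% of 6100 between 40 and 80 and at 2.05% of 3804 above 80. H3K27me3 was therefore most frequent at intermediate H3K4me3. H3K27me3 above 100 had its highest share one step lower, at 5.91% of promoters between 10 and 20 and 3.63% between 20 and 40. Read the other way, H3K4me3 above 20 was found at 62.7% of all promoters. Its share was 60.3% of 15951 promoters with an H3K27me3 of 10 or less and 69.9% of 2928 between 10 and 20. It was 77.7% of 646 promoters between 20 and 40 and 85.1% of 456 between 40 and 100. Between 100 and 200 it was 63.3% of 166 (55.7 to 70.2%), near the share of all promoters. Above 200 it was 33.7% of 95 (25.0 to 43.7%). No promoter above 100 for H3K27me3 was above 100 for H3K4me3. Spearman's rho between the marks was 0.15 over all 20242 promoters and −0.16 over the 1027 with both, where the points share their libraries and, in part, their windows.

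CpG content separated the unmarked promoters from the others more than it separated the marked classes from each other. The ratio of observed to expected CpG within 500 bp of the start had a median of 0.79 at 927 promoters with both marks and of 0.79 at 10790 promoters with H3K4me3 only. It was 0.69 at 306 H3K27me3-only promoters and 0.26 at 6217 promoters with neither mark. A ratio of at least 0.6, taken as CpG-rich, was found at 88.5%, 88.0%, 65.7% and 13.7% of these classes. H3K27me3 exceeded 20 at 8.98% of CpG-rich and 3.09% of CpG-poor promoters, and H3K4me3 at 90.7% and 20.4%. H3K4me3 followed CpG content across promoters (Spearman's rho 0.67, n = 18240), and H3K27me3 did so weakly (0.15). The balance of promoters with both marks had a rho of 0.0012 with it (n = 927). The 200 bases before the start held a median of 19 CpG at promoters with both marks, 13 with H3K27me3 only, 19 with H3K4me3 only and 3 with neither.

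**Figure D4:**
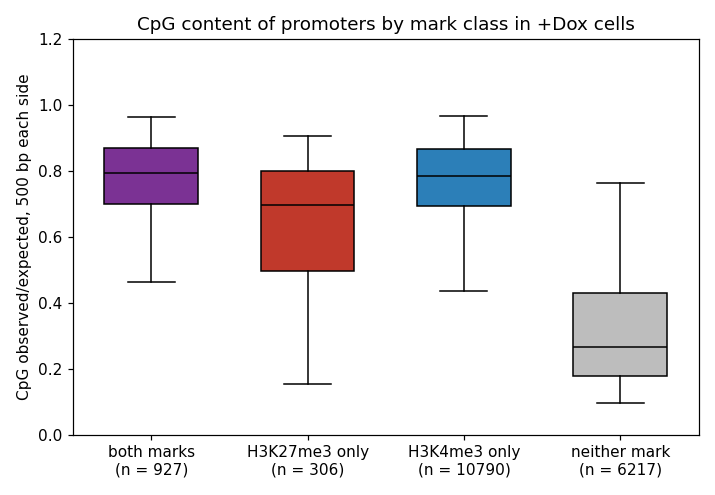
Ratio of observed to expected CpG within 500 bp on each side of the transcription start (y axis) for the 4 mark classes in +Dox cells. Boxes show quartiles with the median and whiskers the 5th and 95th percentiles, and the box of promoters with neither mark lies below the other boxes.

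Promoters with H3K27me3 were partly arranged in runs. Neighbouring promoters above 20, with at most 100 kb between starts and no promoter without the mark in between among the 18244 with a position, formed 926 single promoters, 98 pairs, 16 runs of 3 and 9 runs of 4 or more, the latter with 63 promoters. The HOX clusters gave the longest runs, with 11 promoters from HOXA2 to EVX1 over 140 kb of chromosome 7, 10 from EVX2 to HOXD1 over 105 kb of chromosome 2, 10 over 94.2 kb of chromosome 12 and 8 over 88.5 kb of chromosome 17. The runs of the HOXA and HOXC clusters contained no promoter with both marks. Shorter runs held WNT6, WNT10A, CDK5R2, FEV and CRYBA2 on chromosome 2 (5 promoters, median H3K27me3 of 164), the DUOX2, DUOXA2, DUOXA1 and DUOX1 genes on chromosome 15 (228) and SFTA3, NKX2-1, NKX2-8 and PAX9 on chromosome 14 (246). A run of 6 on chromosome 12 from AGAP2-AS1 to CYP27B1 had a lower median of 57.8, and 4 of its promoters carried both marks. Windows of adjacent starts overlapped for 14.8% of promoters with both marks and 14.4% of those with H3K27me3 only, so neighbours in a run are not independent measurements.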

How the data were processed

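The study sequenced ChIP libraries as 150-base single-end reads on a MiSeq and mapped them to hg19 with Bowtie2 (version not given in the sources used here), and CASAVA 1.4 is named in the submitters' processing notes. The deposited values are in units of signal. They were made by the authors with ngs.plot as coverage from 3 kb before to 3 kb behind the start of 1 transcript per Ensembl gene and are relative to library reads. Whether a scaling to the density behind transcription ends, named in the methods, entered them is not stated, and no input library was used here. Values therefore include background.

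Scripts in Python 3.11.15 (pandas 2.3.3, numpy 2.4.6, scipy 1.17.1) joined the +Dox files, and no untreated value was used. Approximate reads were the values divided by the step and by 3.35 (H3K27me3) or 3.41 (H3K4me3) data points per read, estimated from low values and tested on simulated data. Shares carry Wilson intervals and single values Poisson intervals at 95%. Transcripts were matched to GENCODE 44 on GRCh37 (18244, 90.1%), and canonical starts and CpG content come from it and its genome. In 28 rows the symbol had become a date. Members and gene lists were chosen with earlier results of these data known. Some genes and sequences are not reported here. Named are lineage genes, the promoters with the highest or lowest values or balance of each class (10, or 5 for H3K4me3-only), and up to 3 members of a family with the highest H3K27me3 and up to 3 outside its commonest class. Other genes named to complete a count were picked after their values were seen.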

Additional observations from a re-analysis of the deposited data

How the results depend on the processing

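With 1 library per mark no replicate could be left out. No paired analysis was possible because no result comes from a test. The counts turned on the threshold. At 10, both marks were found at 3538 promoters and H3K27me3 only at 753, the share of developmental transcription factor promoters with both was 58.9%, and the median balance reversed to −1.38. At 40, both were found at 225, that share was 10.5% and the balance 0.24. Keeping only promoters whose counting intervals excluded 20 left 455 with both marks, 70 with H3K27me3 only and a balance of 0.27. Taking the top 10% of each mark (above 14.5 for H3K27me3 and 97.3 for H3K4me3) gave 76 with both, 1929 with H3K4me3 only, 1897 with H3K27me3 only, 16340 with neither, a share of 2.36% and a balance reversed to −2.64. Counting rows with identical values once gave 6713 with H3K4me3 only, 1593 with neither and a share of 45.3%, and by construction it also merges unrelated promoters that share low values. Starts near the canonical start left 15693 promoters, 4775 of them with neither mark, and the cause was not tested. Scaling the libraries to the same total moved the balance to 2.13. An alternative chosen after seeing the data, windows that do not overlap, kept every count within 1.5 times (both marks 854 of 16155). For single families the share with both marks left its Wilson interval for 35 of 78 lists at 10 and for 45 at 40.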
